A study of Mus musculus with 48 samples.

Results

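Livers of mice that lacked Bmal1 in adipocytes were compared with livers of wild-type (WT) mice at a single collection time, ZT16, which falls in the early part of the mice's active night. The comparison took every library labelled ZT16, 3 from knockout (KO) and 5 from WT mice, out of 48 libraries collected every 4 h at 6 times from 23 KO and 25 WT mice. All 8 mice were female C57BL/6J that had lived on a schedule of 12 h light and 12 h dark and were then kept 1 day in the dark. Food was withheld for 24 h before the liver was taken. KO mice 1, 2 and 3, numbered by the labels, were 38, 38 and 105 weeks old and weighed 23.7, 22.8 and 20.8 g. WT mice 1 to 5 were 93, 38, 105, 38 and 93 weeks old and weighed 21.7, 19.8, 19.9, 19.1 and 24.6 g. The labels name neither the Cre driver nor the control allele that the WT mice carried. Bmal1 (symbol Arntl) was removed from fat cells and not from liver, so its level in liver does not check the genotype labels.

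The circadian clock is a feedback loop within each cell. BMAL1 pairs with CLOCK, or with its relative NPAS2, and switches on genes through E-boxes in their promoters; the products of Per, Cry, Bhlhe40, Bhlhe41 and Gm129 (also called Ciart) then hold that pair back, while REV-ERB receptors repress and ROR receptors activate Arntl and Npas2 themselves. In liver this loop and the signals of feeding and fasting together time glucose, lipid and bile acid metabolism, and fat tissue is known to signal to the liver through fatty acids and hormones such as leptin.

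Without the Alb row, each of the 48 libraries held 12841969 to 13009797 counts, and 13646 genes of the 22354 in the table passed the filter on low counts. Levels are CPM, read counts scaled to a common library size. At ZT16 KO mouse 3 and WT mouse 2 stood apart from the other 6 on the first principal component, which held 58.0% of the variance, at 81.3 and 52.1 against -30.5 to -7.75. Gene loadings on that component followed GC content (r = -0.70 across 9737 genes, which are not independent), and these 2 libraries had GC slopes of -0.74 and -0.63 log2 units per 10 points of GC against 0.12 to 0.58 in the rest. Body weight averaged 22.4 ± 1.48 g in KO (SD, n = 3) and 21.0 ± 2.22 g in WT (SD, n = 5), a difference of 1.41 g that an exact permutation test did not separate from 0 (two-sided p = 0.375, smallest possible 0.0179). Mean age was 60.3 ± 38.7 weeks in KO (SD, n = 3) and 73.4 ± 32.7 in WT (SD, n = 5; exact permutation p = 0.929), and both mice of 93 weeks were WT. At the 5 other times KO and WT mice with the same number had the same age in 20 of 20 pairs, and at ZT16 in 2 of 3. Whether a genotype label at ZT16 is wrong cannot be told from the labels, and every KO minus WT value here rests on them. The labels do not say whether mice shared a cage or litter.

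Only 3 genes passed the test between the genotypes, all higher in KO: Pxdn, Foxp1 and Slc4a9. They were 0.022% of the genes tested, and each had an adjusted p of 0.0484 (edgeR quasi-likelihood test, Benjamini-Hochberg adjustment, threshold 0.05). No gene passed as lower in KO by edgeR, although 412 genes had an unadjusted p under 0.05 in that direction and DESeq2 called 6. In the other direction 495 genes had an unadjusted p under 0.05, and DESeq2 called 11, these 3 among them. The calls lay close to the threshold: with body weight as a covariate all 3 had an adjusted p of 0.0504, and with age as a covariate, with the 3 WT mice of matching ages, or with only the ZT16 libraries no gene passed.

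Pxdn (mm9 chromosome 12, 30622901 to 30702523) encodes peroxidasin, a peroxidase of the extracellular matrix that crosslinks collagen IV in basement membranes. Its level was 16.7, 15.4 and 13.96 CPM in KO mice 1 to 3 and 6.19, 9.13, 9.14, 6.03 and 8.31 CPM in WT mice 1 to 5. Every KO liver lay above every WT liver, and the spread within each genotype was small. The log2 difference was 0.98 (SE 0.18), from 7.76 ± 1.54 CPM (SD, n = 5) to 15.4 ± 1.38 (SD, n = 3). It remained between 0.91 and 1.05 when any one of the 8 libraries was left out, but its adjusted p rose past the threshold without KO mouse 2 (0.0908), WT mouse 1 (0.133), WT mouse 4 (0.172) or WT mouse 5 (0.0667). Across the day WT Pxdn was lowest at ZT12, at 5.87 ± 1.88 CPM (SD, n = 4), where KO stood at 10.8 ± 1.22 (SD, n = 4). That difference of 0.88 (SE 0.19) did not pass at ZT12 (adjusted p = 0.186), and at ZT0 and ZT20 the genotypes differed by 0.01 and 0.08.

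Foxp1 (mm9 chromosome 6, 98875332 to 99216526), a forkhead transcription factor, was also above every WT liver in every KO liver, but by very unequal amounts. Its level was 18.1, 43.5 and 16.6 CPM in KO mice 1 to 3 and 13.3, 14.8, 14.03, 11.3 and 13.9 CPM in WT mice 1 to 5. KO mouse 2 carried most of the log2 difference of 0.95 (SE 0.19), which was 0.36 (SE 0.16, adjusted p = 0.46) without that mouse. Without any one of the WT mice its adjusted p lay between 0.0663 and 0.172.

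Slc4a9, a bicarbonate transporter of the anion exchanger family on chromosome 18, rested on KO mouse 2 alone. It had 0.22, 17.5 and 0.65 CPM in KO mice 1 to 3 and 0.33 to 0.72 CPM in the 5 WT mice. KO mouse 1 lay below the WT range and KO mouse 3 within it. The log2 difference of 3.56 (SE 0.70) became -0.22 (SE 0.70, adjusted p = 0.89) without KO mouse 2, and its adjusted p was likewise 0.0663 to 0.172 without any one of the WT mice.

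**Figure D1:**
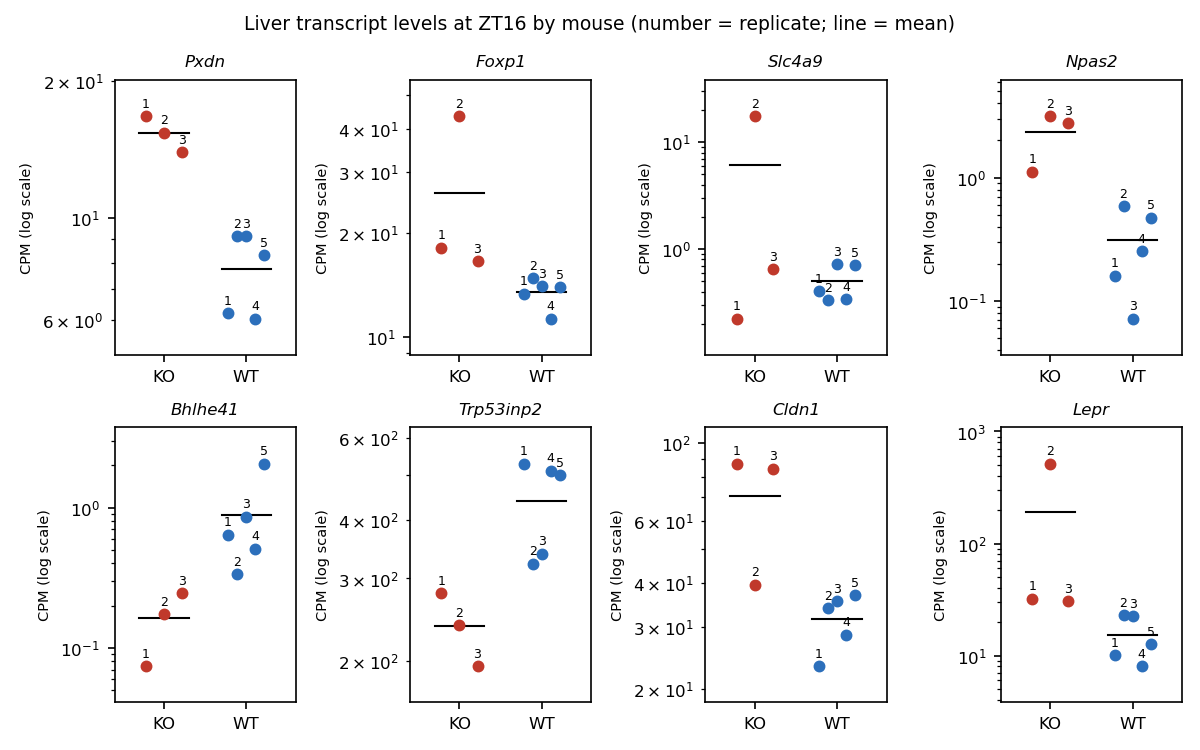
Levels in CPM (log axis) of 8 genes in the liver of each mouse at ZT16, with KO in red, WT in blue, the replicate number beside each point and a line at the group mean. The groups overlap only for Slc4a9, and the KO means of Slc4a9, Lepr and Foxp1 are pulled up by KO mouse 2.

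The next genes by p in the higher direction had adjusted p-values of 0.0544 to 0.108. Npas2, the partner of BMAL1, had 1.11, 3.131 and 2.78 CPM in KO mice 1 to 3 and 0.16, 0.59, 0.072, 0.25 and 0.47 CPM in WT mice 1 to 5, a log2 difference of 2.89 (SE 0.64). Its adjusted p of 0.108 became 0.0228 without KO mouse 1 and, in a fit chosen after the data were seen, 0.0167 with GC slope as a covariate (edgeR); DESeq2 gave an adjusted p of 0.008. In the other fits Npas2 missed the threshold. Its adjusted p by edgeR was 0.266 without KO mouse 2, 0.21 without KO mouse 3 and 0.0663 to 0.299 without any one WT mouse. It was 0.396 with the age-matched mice and 0.968 with only the ZT16 libraries (edgeR), and 0.554 by limma voom. The groups did not overlap, and the WT levels were near the limit of counting. Cldn1, a claudin of tight junctions, had 87.2, 39.6 and 84.4 CPM in KO and 23.2 to 36.9 CPM in WT, a difference of 1.16 (SE 0.26). Here KO mouse 2 was the lowest of the KO mice and still lay above all WT mice. Camk1d, a calcium and calmodulin dependent kinase, had 49.7, 112 and 89.4 CPM in KO against 11.5 to 47.6 in WT, a difference of 1.30 (SE 0.30). Lepr, the leptin receptor, had 32.1, 516 and 30.4 CPM in KO against 10.05, 22.9, 22.5, 8.07 and 12.6 in WT. All 3 KO livers lay above WT for Lepr, yet the difference of 3.66 (SE 0.82) was 1.04 (SE 0.80) without KO mouse 2. Adcy1, Arl13b and Ppp1r3g complete this group and overlapped between genotypes, with KO mouse 2 far above the rest in each.

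In the lower direction the 10 genes with the smallest p had adjusted p-values of 0.108 to 0.294. Trp53inp2, which takes part in autophagy, had 279, 238 and 195 CPM in KO mice 1 to 3 and 528, 323, 339, 510 and 500 CPM in WT mice 1 to 5, a log2 difference of -0.89 (SE 0.20, adjusted p = 0.108). Its KO and WT levels did not overlap, and over the 5 other times its difference was -0.01. Several of the other 9 are matrix or secreted proteins at low levels: Adamtsl5 had 0.39 ± 0.33 CPM in KO (SD, n = 3) and 1.54 ± 0.37 in WT (SD, n = 5), Cpxm1 0.23 ± 0.14 against 5.31 ± 6.02, and Crispld2 0.34 ± 0.094 against 1.70 ± 0.89. Podn, a small leucine-rich proteoglycan, had 1.65 ± 1.21 CPM in KO and 7.17 ± 4.44 in WT. Rec8, a meiotic cohesin subunit, and Kcnn4, a calcium-activated potassium channel, were also low, at 0.21 ± 0.074 against 1.36 ± 0.82 CPM and 0.11 ± 0.056 against 1.26 ± 1.21 CPM. Of these 9, Adamtsl5, Cpxm1, Crispld2, Rec8 and Kcnn4 did not overlap between genotypes. Such separation was found in 160 genes of the whole table, 1.17% of those tested, 79 with KO above and 81 with KO below.

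Among 21 clock genes none passed edgeR's test in the fit without covariates. Npas2 passed only without KO mouse 1, with GC slope as a covariate and by DESeq2. The 3 activators had a median log2 difference of 0.70, and 7 of 8 repressors were below 0 with a median of -0.43, against 0.01 over all genes, of which 50.7% were above 0. The activator median was 0.41 without KO mouse 2, and the repressor median was -0.19 without KO mouse 3 and -0.19 with GC slope as a covariate. In that last fit Clock stood at -0.035, Per1 at 0.16 and Cry2 at 0.092, each on the other side of 0. Arntl (mm9 chromosome 7, 120350979 to 120457636) had 19.2, 36.1 and 23.6 CPM in KO mice 1 to 3 and 13.8, 21.3, 15.2, 15.1 and 15.4 CPM in WT mice 1 to 5. The groups overlapped through WT mouse 2, and the difference was 0.70 (SE 0.39, adjusted p = 0.731). Clock differed by 0.28 (SE 0.35), with its highest levels in WT mouse 2 (101 CPM) and KO mouse 3 (82.1 CPM), the libraries that stood apart on the first component. Leaving both libraries out gave Npas2 a difference of 3.09 (SE 0.78, adjusted p = 0.171 by edgeR).

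Gm129, a repressor that binds BMAL1, had 5.35, 9.04 and 0.41 CPM in KO mice 1 to 3 and 26.3, 13.5, 18.9, 29.4 and 6.97 CPM in WT mice 1 to 5. WT mouse 5 fell within the KO range, and the difference was -1.95 (SE 0.72, unadjusted p = 0.00973, adjusted p = 0.636). Bhlhe41 (also called Dec2) had 0.074, 0.17 and 0.24 CPM in KO and 0.64, 0.33, 0.86, 0.51 and 2.06 CPM in WT. Its groups did not overlap, at very low counts, and the difference was -2.38 (SE 0.82, adjusted p = 0.557). Per2 had a difference of -0.53 (SE 0.30), Per1 -0.26 (SE 0.62), Per3 -0.25 (SE 0.35), Cry2 -0.32 (SE 0.35) and Bhlhe40 -0.56 (SE 0.40), and Cry1 alone among the repressors was above 0, at 0.29 (SE 0.26). Among the outputs Usp2, a deubiquitinase, was lower by unadjusted p (-1.10, SE 0.49, adjusted p = 0.731 by edgeR), and Dbp, a transcription factor driven by E-boxes, had 12.7, 8.35 and 5.31 CPM in KO against 5.53 to 25.3 in WT (-0.80, SE 0.55). Nr1d1, which encodes REV-ERB alpha, had 3.12 ± 2.58 CPM in KO (SD, n = 3) and 8.01 ± 4.30 in WT (SD, n = 5), a difference of -1.36 (SE 0.93).

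The stretch of 250 bases before the transcription start is shown for 3 E-box genes of this set, 2 of them with the smallest p among the repressors and 1, Cry1, whose difference had the other sign. The sequences are from RefSeq on build GRCm38.p6, minus strand, 5′ to 3′, and capitals mark the canonical E-box CACGTG. Gm129 is at chr3:95882229-95882478, Bhlhe41 at chr6:145865421-145865670 and Cry1 at chr10:85185055-85185304.
Gm129: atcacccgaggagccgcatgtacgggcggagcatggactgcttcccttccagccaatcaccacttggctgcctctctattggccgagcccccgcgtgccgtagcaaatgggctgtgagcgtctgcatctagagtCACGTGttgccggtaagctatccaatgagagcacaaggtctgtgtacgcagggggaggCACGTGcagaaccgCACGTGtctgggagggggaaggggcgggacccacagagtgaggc
Bhlhe41: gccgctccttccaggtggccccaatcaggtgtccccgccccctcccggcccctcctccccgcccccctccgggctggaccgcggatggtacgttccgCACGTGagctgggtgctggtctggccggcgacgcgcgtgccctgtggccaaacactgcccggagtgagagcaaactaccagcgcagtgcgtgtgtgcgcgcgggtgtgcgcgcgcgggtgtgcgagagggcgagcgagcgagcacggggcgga
Cry1: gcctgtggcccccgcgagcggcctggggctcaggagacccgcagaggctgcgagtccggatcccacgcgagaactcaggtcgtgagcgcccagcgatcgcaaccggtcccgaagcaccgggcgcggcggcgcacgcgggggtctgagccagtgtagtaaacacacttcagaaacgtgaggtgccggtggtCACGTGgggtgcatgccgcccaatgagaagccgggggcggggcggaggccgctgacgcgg
Gm129 holds 3 E-boxes in this window and the other 2 hold 1 each. A canonical E-box was found in windows of 5 of the 17 clock genes with a RefSeq window, and in 6.0211% of 32851 windows of the same length (the motif reads the same on both strands). The ROR element core TAGGTCA, searched on both strands, was found in Nfil3 alone of the 17 (2.2343% of all windows), and the D-box TTATGTAA, searched on both strands, in Per3 alone (0.8188%). The 17 genes had 22 windows, and a gene counted through any of its windows. The shares over all windows count single windows, so counts of genes and these shares are not alike. A match describes letters and not binding, and none of the 3 genes shown passed the test.

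**Figure D2:**
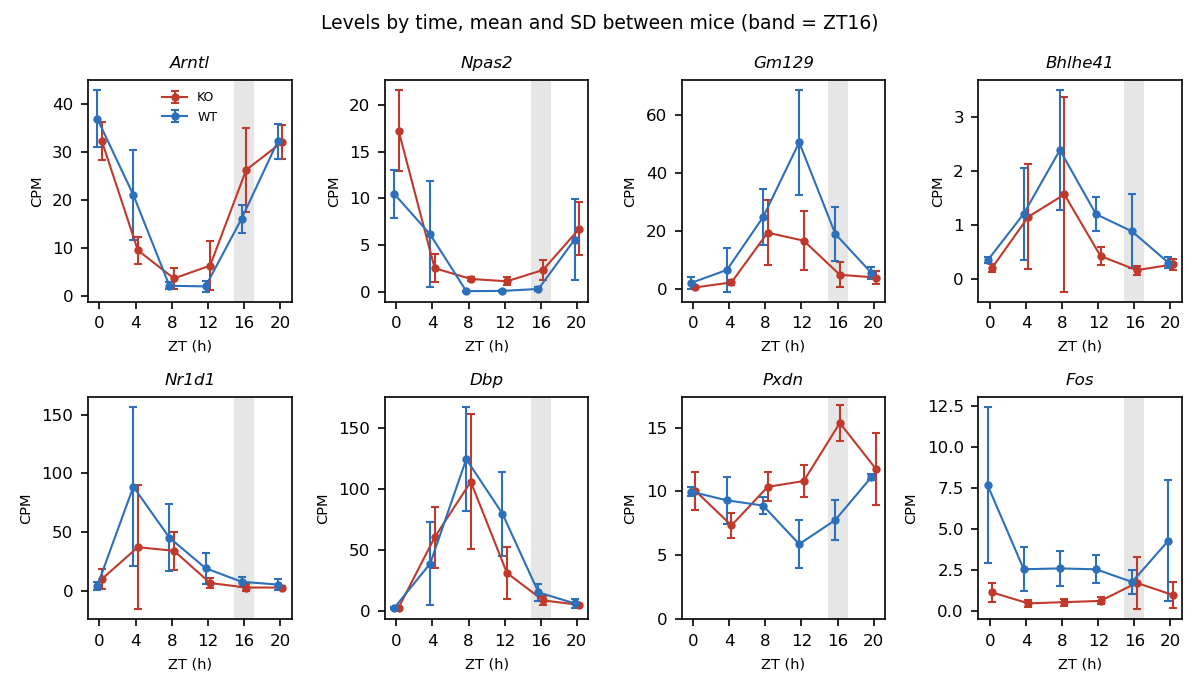
Mean level in CPM with SD between mice at each of the 6 collection times (x axis, ZT in hours) for 8 genes, KO in red and WT in blue, with ZT16 shaded. At ZT16 KO stands at 26.3 CPM for Arntl against 16.2 in WT and at 4.93 CPM for Gm129 against 18.99, and the Fos means, 1.69 and 1.75 CPM, meet only there.

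In 14 of 21 clock genes the KO mean at ZT16 lay nearer to the WT mean of ZT20 than to that of ZT16, and in 12 without KO mouse 2. The same share over all genes was not counted, nor was the number of clock genes without KO mouse 3, which stood apart on the first component. Among the 14, KO mouse 3 was the lowest KO mouse for Bhlhe40 (33.4 CPM against 123 and 82.4) and Cry2 (25.0 against 51.0 and 65.9). It was the highest for Clock (82.1 CPM against 38.1 and 59.2). Some of the 14 lay beyond the WT mean of ZT20, such as Nr1d1 (3.12 against 5.68 CPM) and Rora (116 against 101 CPM). Arntl and Gm129 were among the 14, but without KO mouse 2 the Arntl mean was 21.4 CPM, nearer to WT at ZT16. WT Arntl went from 2.02 CPM at ZT12 to 16.2 at ZT16 and 32.3 at ZT20, and KO had reached 6.34 and 26.3 at the first 2 of these times. WT Gm129 went from 50.5 CPM at ZT12 to 18.99 at ZT16 and 5.57 at ZT20, and KO stood at 16.7, 4.93 and 3.99. No difference of a clock gene at ZT12, ZT16 or ZT20 passed edgeR's test in the fit without covariates, and a shift in time was not tested.

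KO mouse 2 set several of the genes that were high in KO. Without this mouse edgeR called no gene, but 867 of 13894 genes were higher and 632 lower at an unadjusted p under 0.05. With all 8 livers these counts were 495 and 412 of 13646. In 13 of the 13646 genes tested the level of KO mouse 2 was at least 4-fold above each of the other 7 livers (on CPM plus 0.5). In 2 genes it was at least 4-fold below. For 12 of the 13 it was the highest of all 48 livers. Igfbp1, which encodes an insulin-repressed binding protein for IGFs that rises in fasting liver, had 129, 3766 and 109 CPM in KO mice 1 to 3 and 97.7 to 311 CPM in WT, while the highest of the other 47 livers had 454. Ppp1r3g, a subunit that targets a phosphatase to glycogen, had 8.69, 304 and 1.80 CPM in KO and 2.01 to 14.4 in WT. Egfr, the receptor of epidermal growth factor, had 97.9, 674 and 54.6 CPM in KO and 60.3 to 141 in WT, and Got1, a transaminase, 240, 2414 and 136 CPM against 179 to 587. G0s2, an inhibitor of fat breakdown, had 409, 5.57 and 1642 CPM in KO and 126 to 841 in WT, and here KO mouse 2 was the lowest of the 8. Adcy1, Lepr, Slc4a9, Arl13b, Eif4ebp3, Fst, Acmsd, Gm11827 and Nr4a1 were the other high genes, and Spc25 the other low one. No such gene was found for KO mouse 1, WT mouse 1 or WT mouse 2.

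**Figure D3:**
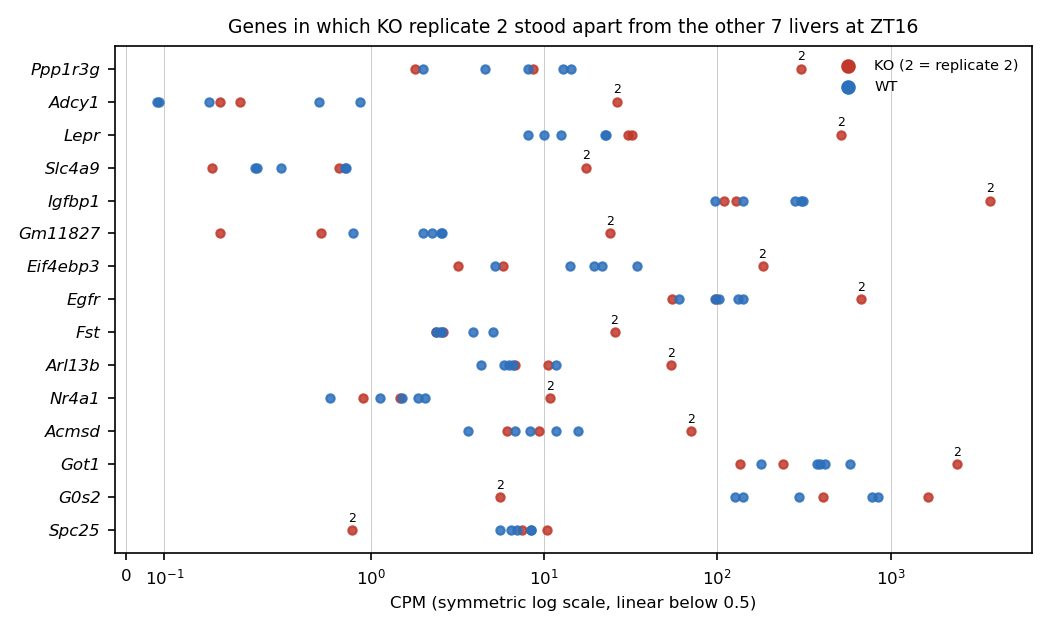
Levels in CPM (symmetric log axis) of 15 genes in which KO mouse 2 lay at least 4-fold from each of the other livers at ZT16, KO in red and WT in blue. KO mouse 2, marked 2, lies to the right in 13 genes and to the left in G0s2 and Spc25, and the other KO mice lie among or near the WT mice.

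The list of 20 insulin, IGF and growth hormone signalling genes showed the same dependence. By unadjusted p under 0.05, 7 of 20 were higher and 1 lower, against 3.63% and 3.02% of all genes, and the median was 0.32. Besides Lepr and Igfbp1 these were Sesn1, a stress-induced inhibitor of growth signalling (0.89, SE 0.23), Socs2, a target and brake of growth hormone signalling (1.53, SE 0.47), the insulin receptor Insr (0.44, SE 0.15), Stat5b (0.57, SE 0.23) and Irs1 (0.44, SE 0.21), with Pik3r1 lower (-0.61, SE 0.21). Socs2 had 21.2, 163 and 37.8 CPM in KO and 15.3 to 41.02 in WT. Without KO mouse 2 the median was -0.22, with 2 genes higher and 2 lower, against 867 and 632 of 13894 genes in that fit. Ppargc1a, a coactivator of gluconeogenesis, had 21.0, 106 and 26.2 CPM in KO and 11.1 to 28.7 in WT (1.36, SE 0.40), and was the 1 of 20 genes of gluconeogenesis and amino acid catabolism with an unadjusted p under 0.05.

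Fos and Junb, immediate early genes that were lower in KO over the 5 other times, had mean differences near 0 at ZT16. Their KO mice were widely spread, so equal levels are not shown. Fos, a subunit of AP-1, had 1.19, 3.48 and 0.41 CPM in KO mice 1 to 3 and 2.49, 0.59, 2.303, 1.61 and 1.74 CPM in WT mice 1 to 5. KO mouse 2 was the highest of the 8, and the difference was -0.06 (SE 0.61), against -2.36 (adjusted p = 1.4e-06) over the 5 other times. Junb differed by -0.04 (SE 0.46) at ZT16 and by -1.37 over the other times, and Dusp1, a phosphatase that ends MAP kinase signals, by -0.84 (SE 0.44) and -1.80. The difference between ZT16 and the other times had unadjusted p-values of 0.0013, 0.011 and 0.043 for Fos, Junb and Dusp1 by edgeR, and for none of these did it pass after adjustment; 3.5% of all genes had such a p under 0.05. Without KO mouse 2 the ZT16 difference of Fos was -1.11 and that of Junb -0.85, and without KO mouse 3 they were 0.39 and 0.26. Over the list of 21 immediate early genes the median was -0.06 at ZT16, -0.50 without KO mouse 2 and 0.11 without KO mouse 3. It was -0.46 over the other times, and none had an unadjusted p under 0.05 at ZT16. Glucocorticoid-responsive genes behaved alike: the median of 16 was 0.07, -1.04 without KO mouse 2 and 0.28 without KO mouse 3. Without KO mouse 2, 8 of 16 had an unadjusted p under 0.05 as lower, against 4.55% of all genes in that fit. That fit rests on KO mice 1 and 3, and KO mouse 3 stood apart on the first component. Ddit4, one of them, had 7.36, 320 and 3.10 CPM in KO and 6.65 to 109 in WT. Fkbp5, a classical target of the glucocorticoid receptor, had 95.3, 358 and 41.8 CPM in KO and 154 to 393 in WT. KO mice 1 and 3 lay below every WT mouse for Fkbp5 and KO mouse 2 within the WT range.

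**Figure D4:**
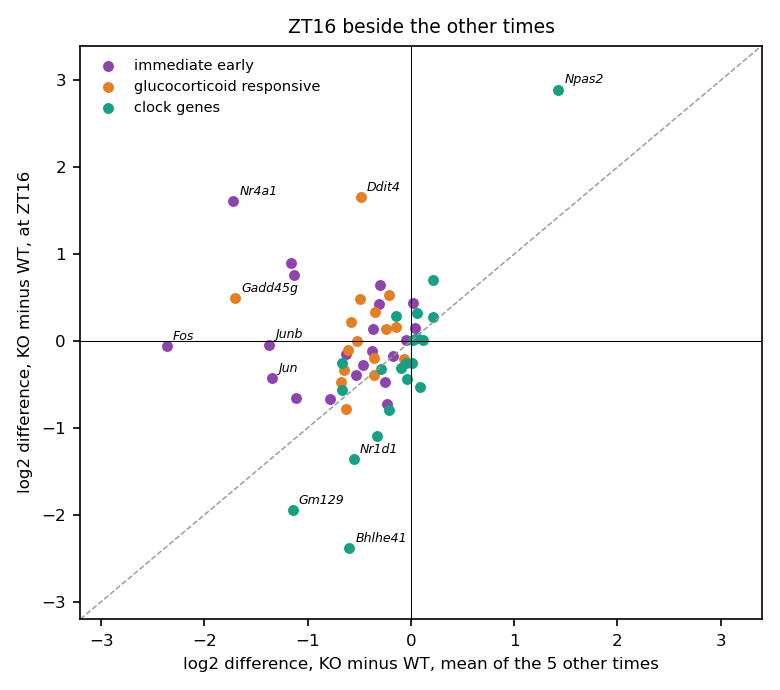
Log2 difference, KO minus WT, at ZT16 (y axis) and as the mean of the 5 other times (x axis) for clock, immediate early and glucocorticoid-responsive genes, with a dashed line of equal differences. Fos lies at -0.06 on the y axis and -2.36 on the x axis, while Npas2 lies above 0 and Gm129 below 0 on both axes.

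Over the whole table, a difference at ZT16 against the mean of the 5 other times was called by edgeR for 1 gene, Slc4a9 (4.29 on the log2 scale, 0.00733% of genes), and by DESeq2 for 5. It was lost without KO mouse 2 and without any one of the WT mice. Of 82 genes called by edgeR over the 5 other times (0.601% of those tested), edgeR called none at ZT16 and DESeq2 called 3 there, Npas2, Cpxm1 and Serpinb1a. Of the 82, 13 had an unadjusted p under 0.05 for the difference between ZT16 and the other times (edgeR), against 3.5% of all genes. At ZT16 72 had the same sign and 28 the same sign with an unadjusted p under 0.05. Over all genes 6.65% had such a p at ZT16 in either direction, and the share with the same sign was not counted. Rec8 and Aim1l, a crystallin-like protein, were among these 28, with differences of -2.62 (SE 0.65) and -2.15 (SE 0.66) at ZT16 and -1.66 and -2.09 elsewhere. Cd36, the fatty acid transporter, differed by 0.74 at ZT16 (SE 0.35) and by 0.74 over the other times, but its ZT16 levels of 325, 251 and 737 CPM in KO overlapped the 116 to 419 CPM of WT, and without KO mouse 3 the ZT16 difference was 0.13. Serpinb1a, a protease inhibitor, had 31.8, 25.1 and 420 CPM in KO and 5.09 to 43.1 in WT, so that KO mouse 3 carried its difference of 2.98 (SE 0.72, adjusted p = 0.154).

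Lipid handling genes moved in both directions by unadjusted p under 0.05, which 3.63% of all genes reached as higher and 3.02% as lower. Of 17 genes of lipid uptake and droplets, Lpl, a lipase that releases fatty acids from lipoproteins, and Cd36 were higher, and Mgll, Plin5 and Plin4 were lower. Plin5, a coat protein of lipid droplets, had 191, 173 and 168 CPM in KO and 312, 363, 195, 405 and 293 CPM in WT (-0.82, SE 0.28, adjusted p = 0.557), without overlap. Mgll, which splits monoacylglycerol, had 320, 140 and 183 CPM in KO and 284 to 570 in WT (-0.84, SE 0.28), and Lpl 28.2, 12.7 and 26.6 CPM against 4.66 to 14.8 (1.33, SE 0.44). PPAR alpha targets and ketogenic genes had 21 of 28 members below 0, a median of -0.17 and 1 member, Acadvl, with an unadjusted p under 0.05 (-0.30, SE 0.13). Genes of fatty acid, cholesterol and glycogen metabolism had medians of -0.05, -0.04 and -0.11. In fatty acid synthesis only the elongase Elovl6 had an unadjusted p under 0.05 (0.96, SE 0.34).

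Of 18 genes of bile acid synthesis and transport 15 were above 0, with a median of 0.16. Abcb11, the pump that exports bile salts, had 404, 671 and 551 CPM in KO and 358, 384, 266, 268 and 358 CPM in WT, without overlap (0.73, SE 0.28, adjusted p = 0.673). Of 31 xenobiotic genes, 4 were higher by unadjusted p and none lower, against 3.63% and 3.02% of all genes. The 4 were Cyp2c37 (1.06, SE 0.30), Ugt2b37 (2.04, SE 0.62), Ahr and Cyp2c29. Cyp2c37 had 1675, 1883.5 and 5209.7 CPM in KO and 960 to 1769.5 in WT, so KO mouse 3 stood above the rest, and without that mouse 1 of the 31 remained under that p. Cyp2c37, Ugt2b37 and the Mup genes belong to families of near copies, and how shared reads were counted is not given in the sources used here. Of 15 major urinary protein genes, 8 were above 0 and 7 below, with a median of 0.16. None had an unadjusted p under 0.05, and the smallest adjusted p was 0.731 by edgeR. Mup17 and Mup15 were the 2 of 15 with KO levels above all WT levels, as were 0.579% of all genes tested. Mup17 had 204 to 299 CPM against 4.82 to 197, and Mup15 107 to 178 against 2.66 to 90.0. Their differences were 1.996 (SE 1.06) and 1.92 (SE 1.08). Lgr5, a marker of hepatocytes around the central vein, had 7.80, 16.1 and 12.7 CPM in KO and 4.92 to 7.64 in WT (0.90, SE 0.25, adjusted p = 0.294), but the median of 13 pericentral genes was -0.04.

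Type I interferon response genes leaned upward in KO. Of 26 genes 20 were above 0, with a median of 0.44. By unadjusted p under 0.05, 8 were higher and none lower, against 3.63% and 3.02% of all genes. Usp18, which restrains interferon signalling, had 9.73, 14.3 and 15.6 CPM in KO and 6.83, 8.79, 7.05, 6.88 and 6.97 CPM in WT (0.86, SE 0.28, adjusted p = 0.492). Its groups did not overlap, nor did those of Mx2 (5.14 to 6.35 against 2.63 to 4.75 CPM). Ifit1 had 12.3, 3.83 and 34.5 CPM in KO and 4.82, 12.1, 6.40, 5.18 and 6.02 CPM in WT, so the highest mouse of each genotype was the one that stood apart on the first component. Without KO mouse 3 the count was 3 of 26 and the median 0.14, without both of those mice 4 of 26 and 0.24, and with GC slope as a covariate 4 of 26 and 0.32. Over all genes the counts in those fits, in the same order, were 407 of 13881, 598 of 13873 and 600 of 13646. Of 24 genes of the interferon-gamma GTPases and antigen presentation, 16 were above 0, with a median of 0.33, 3 higher and 4 lower by unadjusted p; without KO mouse 3 the median was -0.20. The 4 lower were H2-Ab1, H2-Eb1, Cd74 and Ciita, genes of antigen presentation by MHC class II, and without KO mouse 2, WT mouse 3 or WT mouse 5 none of the 24 was lower by that p. H2-Eb1 had 24.6, 8.26 and 20.6 CPM in KO and 17.2 to 61.9 in WT (-0.99, SE 0.42), with WT mice 3 and 5 the highest.

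In bulk liver, fewer cells of a type and less RNA per cell cannot be told apart. The hepatocyte markers were abundant in every library, with summed levels of 19570 to 55180 CPM in KO and 36490 to 44320 in WT. KO mouse 3 had the lowest sum and KO mouse 2 the highest, which moves with the genes those mice set, and its part in them was not tested. B lymphocyte and plasma cell genes were below 0 in 15 of 15 members, with a median of -2.29. An unadjusted p under 0.05 was found for 9 of them, against 3.02% of all genes as lower. Ighm, the heavy chain of IgM, had 8.47, 3.57 and 8.49 CPM in KO and 6.75, 8.29, 46.99, 5.09 and 1190 CPM in WT. WT mouse 5, aged 93 weeks, had the highest Ighm of all 48 livers, and without it the median was -0.43 with no member under that p. Neutrophil genes were below 0 in 11 of 12, with a median of -2.19, and -0.65 without WT mouse 3. Ngp, a neutrophil granule protein, had 0.074, 0 and 0.082 CPM in KO and 2.09, 0.25, 21.2, 0 and 0.32 CPM in WT.

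T and NK cell genes were below 0 in 13 of 14 members, with a median of -0.62. By unadjusted p 4 were lower, the T cell kinase Lck among them (-0.98, SE 0.35), against 3.02% of all genes. Without KO mouse 2, none had an unadjusted p under 0.05, and without WT mouse 5, 1 did. Portal fibroblast genes were below 0 in 13 of 13 members with a median of -0.56, and in the 8 fits that leave out 1 library each the median lay between -0.99 and -0.53; over the 5 other times it was -0.53. Podn, Thy1 and Serpine2 had an unadjusted p under 0.05. Kupffer cell and macrophage genes were above 0 in 15 of 16 members, with a median of 0.44 that was 0.11 without KO mouse 1 and 0.76 without WT mouse 2, and their summed levels overlapped, at 461 to 954 CPM in KO and 196 to 883 in WT. Clec4f, a Kupffer cell receptor, differed by 0.60 and Gpnmb, the exception, by -2.302 (SE 1.03), at no more than 1.73 CPM in any of the 8 livers. Lox, a collagen crosslinking enzyme, had 1.49, 0.78 and 1.31 CPM in KO and 0.079 to 0.42 in WT (2.10, SE 0.59, adjusted p = 0.294), while the median of 14 stellate cell and fibroblast genes was -0.04. Of 10 adipocyte markers 4 had enough counts to be tested, and 2 were at 0 in all 8 livers.

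Cell cycle genes were below 0 in 17 of 19 members, with a median of -0.51. By unadjusted p 4 were lower, against 3.02% of all genes. Rrm2, a subunit of ribonucleotide reductase, had 3.79, 6.43 and 2.86 CPM in KO and 12.5, 8.87, 8.85, 11.04 and 7.52 CPM in WT (-1.16, SE 0.42, adjusted p = 0.604), without overlap, and differed by -0.86 over the other times. Top2a had 0.43 to 0.67 CPM in KO and 0.32, 1.51, 3.67, 0.51 and 5.70 CPM in WT, highest in WT mice 3 and 5, the mice with the highest neutrophil and immunoglobulin levels. The part of immune cells in these genes was not tested. Without WT mouse 5 the median was -0.40 with 2 members lower by unadjusted p, and without KO mouse 2 it was -0.26 with 3. Over all genes, 348 of 13607 and 632 of 13894 were lower in those 2 fits. Heat shock genes were below 0 in 15 of 18 members (median -0.26), with none under an unadjusted p of 0.05.

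**Figure D5:**
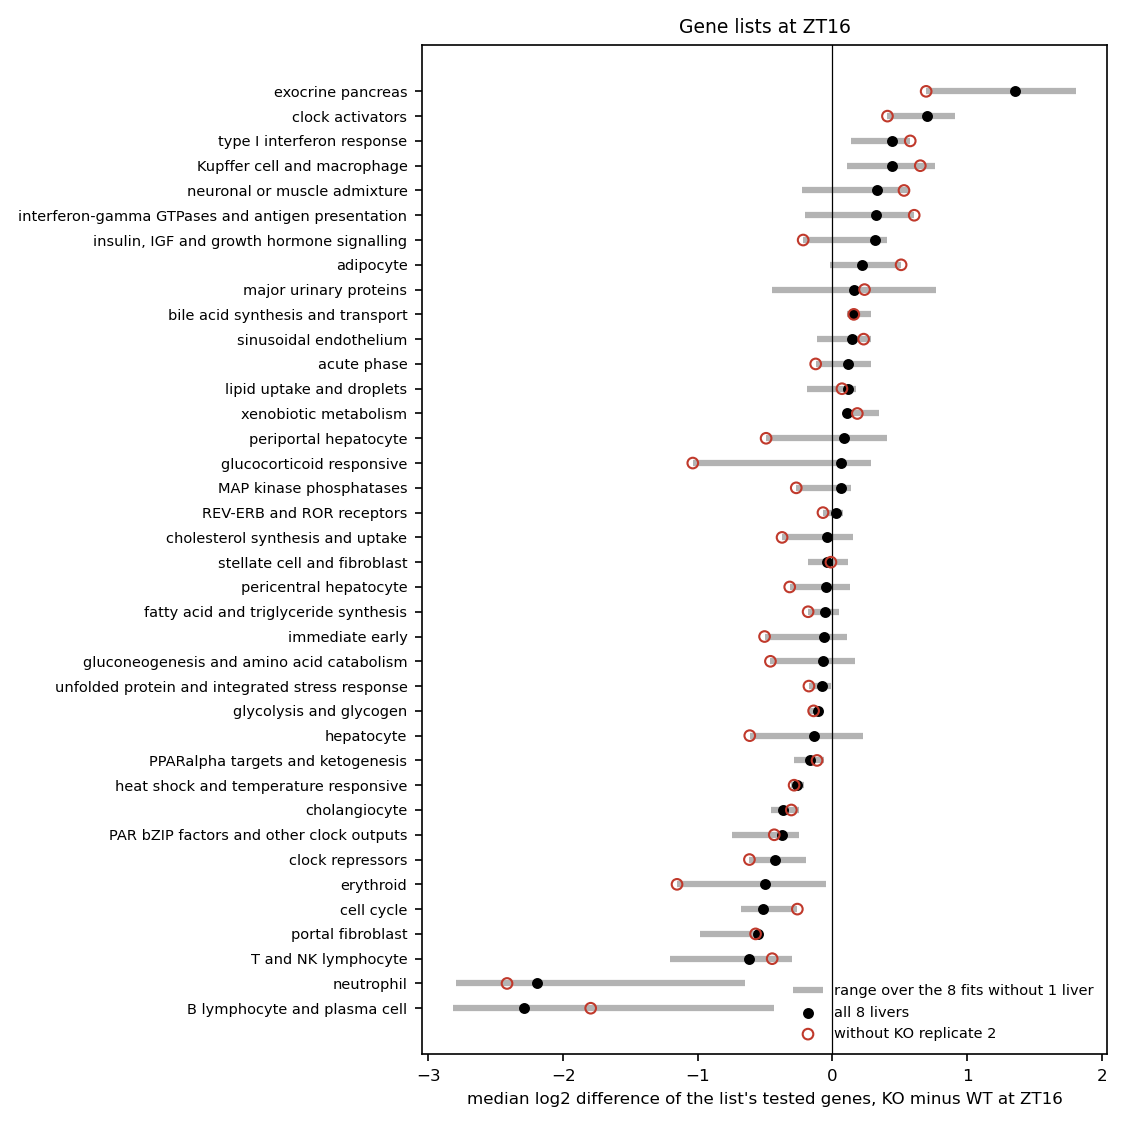
Median log2 difference at ZT16 (x axis, KO minus WT) of the tested genes in each of 38 lists, with a black dot for all 8 livers, a grey bar for the range over the 8 fits that leave out 1 liver, and a red circle without KO mouse 2. The glucocorticoid-responsive and insulin lists cross 0 without KO mouse 2, and the B cell and neutrophil bars reach up to -0.43 and -0.65.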

How the data were processed

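Liver polyA RNA was sequenced after a stranded TruSeq preparation with 13 PCR cycles, per the labels' protocols. CASAVA, STAR 2.4.1d and build mm9 are named in the submitters' processing notes. The deposited values are whole-number read counts per gene, per the file headers; the counting program, the annotation release and how libraries came to nearly equal totals are not given in the sources used here. Columns were mapped to mice by their titles. The Alb row was left out of library sizes and tests.

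Counts were fitted in R 4.3.3 with edgeR 4.0.16 (filterByExpr by group, TMM, quasi-likelihood test, 12 group means over all 48 libraries, which share the estimate of spread). The contrasts were KO minus WT at ZT16 and that difference minus the mean of the differences at the 5 other times, adjusted by the Benjamini-Hochberg method over 13646 genes, threshold 0.05. Log2 differences carry a standard error (SE) from the quasi-likelihood F statistic. Levels are CPM with TMM-scaled library sizes. Where an unadjusted p is given, 3.63% of all genes tested were higher and 3.02% lower under 0.05. Libraries held 12841969 to 13009797 counts, so levels well under 1 CPM rest on few reads; where nothing says mice were independent, p-values measure the spread between these samples.

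Gene lists (625 entries, 612 matched by symbol, 3 by another symbol, 2 by identifier, 8 not found) have no test of their own. Members, lists and the rule for genes to name were chosen with earlier results of these data known. The rule named Arntl, the called genes and the smallest p-values up to 10 in each direction, all clock genes, the 2 members of each list with the smallest p, the gene called against the other times, and genes described earlier for the whole day; other list members and genes set by 1 library are named after their values were seen. A few genes are not reported here, and counts of named genes and of genes set by 1 library leave them out. Alternatives used limma 3.58.1 (voom with sample quality weights) and DESeq2 1.42.0, the RLE scaling, no filter, only the ZT16 libraries, covariates, a replicate block and each library left out. On simulated counts (13536 genes) the test called 62% of 2-fold and 92% of 4-fold rises, 44% of 2-fold and 96% of 4-fold falls, with 4 false calls.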

Additional observations from a re-analysis of the deposited data

Results flagged for a closer look

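Among 111 named genes, 11 had 1 of the 5 WT livers at ZT16 set so far from the other 4 on the log2 scale that the gap exceeded Dixon's 95% critical value of 0.71. This is 9.91% of the genes, where chance flags about 1 in 20 groups, and the genes are not independent of each other. In 9 of the 11 the distant liver was WT mouse 2, which also stood apart in GC slope; the part of GC content in these values was not tested. It was lower for Cry2 (28.2 CPM against 62.1 to 72.7), Per1 (25.9 against 69.9 to 85.7), Bhlhe40 (37.9 against 118 to 170.35) and Hand2 (4.10 against 10.2 to 12.9). It was higher for Clock (101 CPM against 28.8 to 41.2), Arntl (21.3 against 13.8 to 15.4), Usp18 (8.79 against 6.83 to 7.05), Crp (643 against 425 to 453) and Fgg (4680 against 2870 to 3260). WT mouse 5 had 51.1 CPM of AB069917 against 0.085 to 0.36 in the other WT mice, and WT mouse 1 had 88.5 CPM of Ctsc against 105 to 112. The KO group of 3 was not examined in this way.

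Slc4a9 was the gene whose KO minus WT difference at ZT16 departed from that at the other times after adjustment, by 4.29 on the log2 scale (edgeR quasi-likelihood test). Its level came from KO mouse 2, at 17.5 CPM, while the highest of the other 47 livers had 5.87 CPM.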

How the results depend on the processing

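The number of genes called at ZT16 depended on nearly every choice, since all 3 calls lay just under the threshold. The RLE scaling kept 3 higher and 0 lower, DESeq2 gave 11 higher and 6 lower (Ltf among the lower, with no count in KO), and voom with sample quality weights 1 higher, Pxdn. There were 0 calls without a filter, with only the ZT16 libraries, with body weight or age as a covariate, and with the age-matched mice. Leaving out 1 library gave 0 to 22 higher and 0 to 3 lower, and 1442 higher and 923 lower at an unadjusted p under 0.05 without WT mouse 2, against 495 and 412. Foxp1 and Slc4a9 missed the threshold without KO mouse 2 or without any one of the WT mice. Of 19 alternatives Pxdn passed in 9 and Foxp1 in 6, and Slc4a9 in 6 of 18. Chosen after the data were seen, leaving out KO mouse 3 and WT mouse 2 together gave 12 higher and GC slope as a covariate 13, with the same 3 genes among them. Against the other times, DESeq2 called 4 higher and 1 lower; voom, age as a covariate and the age-matched mice 0; those 2 added fits 9 and 5; and leaving out 1 library 0 to 12, with 0 without KO mouse 2 and without any one WT mouse. Except where samples or genes were removed, the cause of these changes was not tested.

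At ZT16 deviations of same-numbered KO and WT livers correlated at 0.11, -0.49 and -0.29, and 2 of 3 such pairs had the same age, as did 20 of 20 at the other times; the labels do not say what a number marks. With a replicate block there were 0 calls at ZT16, 0 against the other times and 65 over the 5 other times, 54 of them among the 82. Its sign changes were Nr1d2 -0.17, Ddit4 -0.30, Syt1 -0.10 and Gadd45g -0.84.

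Among 111 named genes, sign changes elsewhere were in genes with no call in the main analysis. With voom these were Nfil3 -0.14, Ddit4 -0.36, Mup7 0.63, Cidec 0.15, Cela1 -0.26, Syt1 -0.26 and Gadd45g -0.93. With body weight it was Nfil3 -0.15, with age Per1 0.063, Nr1d2 -0.029 and Junb 0.040, and with age-matched mice Nr1d2 -0.076, Fos 0.15 and Junb 0.055. Without KO mouse 3 and WT mouse 2 they were Per1 0.021, Ifi47 -0.11, Cela1 -0.45, Mylpf -0.10, Syt1 -0.14, Fos 0.18 and Junb 0.074. With GC slope they were Clock -0.035, Per1 0.16, Cry2 0.092, Nr1d2 -0.27, Rora -0.036, Syt1 -0.091, Fos 0.14 and Junb 0.33.

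Leaving out 1 library took 20 named genes across 0, Slc4a9 alone of the 3 called. Their ranges were Slc4a9 -0.22 to 4.16, Adcy1 -0.35 to 5.28, Ppp1r3g -0.68 to 4.21, Ddit4 -2.74 to 2.74, Nr4a1 -0.26 to 2.08, Dusp8 -0.84 to 1.61, Gadd45g -2.34 to 1.03, Sds -1.46 to 0.13, Fos -1.11 to 0.39, Junb -0.85 to 0.26, Per1 -1.07 to 0.23, Nfil3 -0.48 to 0.25, Nr1d2 -0.089 to 0.21, Clock -0.035 to 0.72, Wee1 -2.19 to 0.059, Ifi47 -0.21 to 1.23, Clec4g -0.061 to 0.98, Cela1 -0.51 to 0.90, Mylpf -0.25 to 0.86 and Syt1 -0.20 to 0.36.

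List medians moved by more than the spread between libraries for major urinary proteins (1.77), Kupffer cells (1.15) and exocrine pancreas (0.21) with voom, exocrine pancreas (0.54) with only the ZT16 libraries, B cells (-0.46) with the age-matched mice, and the neuronal or muscle list (-0.12) without KO mouse 3 and WT mouse 2. Without 1 library the medians ranged from -2.82 to -0.43 for B cells, 0.70 to 1.81 for exocrine pancreas, -1.04 to 0.28 for glucocorticoid-responsive genes, -0.22 to 0.41 for insulin signalling, -0.23 to 0.57 for the neuronal or muscle list, -2.79 to -0.65 for neutrophils, -0.32 to 0.13 for pericentral and -0.49 to 0.41 for periportal hepatocytes. Without 1 mouse the weight difference ranged from 0.78 to 2.31 g and the age difference from -35.4 to -1.9 weeks, with no test past the threshold.

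With 3 KO mice the test is limited: on simulated counts 62% of 2-fold rises and 44% of 2-fold falls were called, and a p that misses the threshold does not show equal levels. These shares hold for genes with higher counts and for libraries of which none stands apart. They were not measured for genes at low levels, such as Npas2 and Bhlhe41.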

Other observations

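Single livers other than KO mouse 2 also set genes at ZT16. WT mouse 3 had 9 genes at least 4-fold above each of the other 7 livers, most of them neutrophil genes: S100a9 stood at 42.5 CPM and Mpo, myeloperoxidase, at 5.11 CPM. Higher levels occurred elsewhere in the series, with 212 CPM of S100a9 and 34.97 CPM of Mpo in 1 KO liver at ZT20. WT mouse 5 had 17 such genes, mostly immunoglobulin genes, and was the highest of 48 livers in 17 of 17. Its Igkc, the kappa light chain, stood at 320 CPM, its Ighg1 at 115 CPM and its Igj, the chain that joins IgM and IgA, at 158 CPM. WT mouse 4 was high in Serpina1e (729 CPM against a median of 37.04 in the other 47) and Mup11 (362 against 18.1), both members of families of near copies. KO mouse 3 was high in Sult2a3, a sulfotransferase (813 CPM against a median of 28.6), and Serpinb1a, and lay at least 4-fold below the other 7 livers in 35 genes.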
